A study of Mus musculus with 57 samples.

Results

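The genes described here are Gata4, Gata6, Sox7, Sox17 and Hnf4a, 5 transcription factors of the endoderm, chosen by name from the 55450 genes of the count table, and all 5 matched by Ensembl identifier. They were followed in mouse embryonic stem cells (ESCs) driven to differentiate with retinoic acid (RA). The cells carry a double reporter: EGFP replaces one Sox1 allele, and mCherry is knocked in at the end of FoxA2, so that Sox1 (a neuroectoderm factor) and FOXA2 (an endoderm and floor plate factor) can be read by flow cytometry. The line is a clone grown from a single cell, and all groups below carry both reporters. ESCs held in serum with leukaemia inhibitory factor (SerumLIF) were the start (D0) and gave only Sox1-FOXA2- cells. Cells moved to N2B27 medium with 1 uM RA were sorted at D2, D4 and D6 into the gates Sox1-FOXA2-, Sox1+FOXA2-, Sox1-FOXA2+ and Sox1+FOXA2+, about 500 cells a library. In the progeny arm, a larger number of cells of each gate other than the double-negative one were sorted at D2, replated with RA in a medium with serum, and about 500 unsorted cells were harvested 2 or 4 days later (Progeny D4 and Progeny D6). Replating and the change of medium go together in that arm and cannot be told apart. This gave 57 libraries in 19 conditions with 3 biological replicates each, 39 of them sorted cells and 18 progeny.

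GATA4 and GATA6 are zinc-finger factors that bind the motif GATA, SOX7 and SOX17 are SOXF factors with an HMG box, and HNF4A is a nuclear receptor. In the early mouse embryo GATA6 is the first of the GATA pair in the primitive endoderm, the layer that gives rise to the visceral and parietal endoderm of the yolk sac, and SOX17, GATA4 and SOX7 mark later steps of the same layer. HNF4A acts in visceral endoderm, where it is known for genes of secreted apolipoproteins, and later in liver and gut. The same factors also work elsewhere, GATA4 and GATA6 in the heart and SOX7 and SOX17 in endothelium and, for SOX17, in definitive endoderm.

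In GRCm38 with GENCODE M21, Gata6 (ENSMUSG00000005836.10) is at chr18:11052064-11085635 on the plus strand. Gata4 (ENSMUSG00000021944.15) is at chr14:63198922-63271692 on the minus strand. Sox7 (ENSMUSG00000063060.6) lies on the same chromosome, at chr14:63943673-63950732 on the plus strand. Gata4 and Sox7 overlap no other gene, and 2.95% of the exon bases of Gata6 lie inside 1010001N08Rik.

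Sox17 (ENSMUSG00000025902.13) is at chr1:4490931-4497354 on the minus strand. Hnf4a (ENSMUSG00000017950.16) is at chr2:163506808-163572910 on the plus strand, and 52.8% of its span, though 3.73% of its exon bases, lies inside other genes, chiefly the antisense Hnf4aos. Of the exon bases of Sox17 16.9% lie inside Gm37587. Bases that 2 genes share were evidently not counted for either, since all 6048 genes inside a gene of the same strand and all 6457 inside a gene of the other strand were at 0 in every library. Sox1 is one of these, so the Sox1 gate could not be checked on its transcript.

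Members of a family can share reads where their transcripts are alike. The longest run of bases common to the coding sequences of the SOXF pair is printed because it bounds how far a read could match both, and it falls in the part that codes for the HMG box:
Sox7 and Sox17, shared run: ACCCCAACTACAAGTACCGGCC
It is 22 bases long, and the longest run that Gata4 and Gata6 share is 18 bases.

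Of the 5 genes only Hnf4a has entries among the RefSeq promoters of GRCm38.p6 at hand, at 2 starts. They are shown because GATA factors bind the letters AGATAA and TGATAA, which were searched on both strands and are in capitals where found. Each window holds the 250 bases before the start.
Hnf4a, chr2:163506607-163506856, plus strand: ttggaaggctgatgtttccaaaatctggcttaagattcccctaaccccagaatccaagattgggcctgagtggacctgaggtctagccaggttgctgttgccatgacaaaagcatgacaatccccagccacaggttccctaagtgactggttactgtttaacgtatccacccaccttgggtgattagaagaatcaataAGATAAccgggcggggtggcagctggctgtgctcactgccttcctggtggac
Hnf4a, chr2:163546905-163547154, plus strand: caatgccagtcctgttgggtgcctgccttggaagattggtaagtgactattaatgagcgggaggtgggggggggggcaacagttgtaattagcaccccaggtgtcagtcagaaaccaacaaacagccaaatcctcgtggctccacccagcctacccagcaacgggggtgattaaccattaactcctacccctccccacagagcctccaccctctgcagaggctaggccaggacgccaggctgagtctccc
The first window holds AGATAA 52 bases before the start and the second holds neither set of letters. A match to one of them occurs in 5452 of 32851 windows of this length, or 16.6%. The letters are a description of the window and no evidence of binding.

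Raw counts summed to between 10170632 and 81845651 per library (median 36694379), with 14458 to 27832 genes detected. Levels below are normalized counts, that is raw counts divided by DESeq2 size factors. A gene is called changed where the adjusted p of edgeR's quasi-likelihood test, taken over all genes tested, is under 0.05. Where libraries are said not to overlap, this is a description and no test. Full separation of 3 libraries from 3 gives p = 0.1 in an exact two-sided permutation test. The share of all genes without overlap was not computed. With about 500 cells a library the low values scatter widely, and 80.6% of the counts above 0 were even numbers, which is what 2 reads per fragment give. In bulk libraries fewer cells that hold a transcript and less transcript per cell cannot be told apart. Foxa2 itself followed the gates at D2, with 3241, 3057 and 1646 in Sox1-FOXA2+ and 308, 324 and 0 in Sox1+FOXA2-. By D6 it stood at 2697, 1478 and 2585 in Sox1-FOXA2+, but at 0, 728 and 76.6 in the 3 libraries labelled Sox1+FOXA2+. Replicates 1 and 3 of that D6 gate therefore go against their label at the transcript level. Most tests of members that use them are given with and without each library. Rankings of conditions and marker sums include both. Replicate 3 of D0 stands apart from the other D0 libraries in its GATA counts, as given below.

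At D0 the 5 genes were at or near the floor. Sox17 and Hnf4a had no count in any of the 3 libraries, and Sox7 had 0, 0 and 4.13 normalized counts. Gata6 read 0, 0 and 86.8 and Gata4 2.49, 3.96 and 209, so that only replicate 3 held GATA transcripts beyond a trace.

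The SOXF genes were the first to be called, at D2 in Sox1-FOXA2+ cells. Sox17 rose to 175, 787 and 537 normalized counts there, and Sox7 rose to 381, 1310 and 603. The Sox17 mean was 126-fold above a limit of 3 counts per library, used where the count at D0 was 0. For Sox7 the mean level was 555 times that at D0. Pooled counts over summed size factors gave a ratio of 1258, with a 95% counting interval of 348 to 10391. That interval rests on 2 counts at D0 and treats reads as independent. Both SOXF genes passed the test (edgeR adjusted p = 9.72e-06 for each), and no D2 library overlapped a D0 library. Hnf4a reached 168, 117 and 43.8, a mean 27.6-fold above the same limit (edgeR adjusted p = 0.0306). This call is fragile, since it was lost without any one of 5 of the 6 libraries. In all 3 of the 5 genes were called against 3.29% of all 20429 genes tested.

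The GATA genes were also more abundant at D2 than at D0, without being called. Gata6 read 365, 1288 and 1703 in Sox1-FOXA2+ cells, a log2 fold change of 5.60 ± 1.54 (SE) over D0 (edgeR adjusted p = 0.108), with no overlap of libraries. Gata4 read 75.9, 1139 and 1112, a log2 fold change of 3.65 ± 1.52 (edgeR adjusted p = 0.268), and replicate 1 lay below the highest D0 library. Replicate 3 of D0 decides both results: without it the adjusted p was 1.15e-05 for Gata6 and 0.0385 for Gata4. The order of calls at D2, SOXF before GATA, therefore rests on 1 library of the starting cells and cannot be read as an order of activation.

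**Figure D1:**
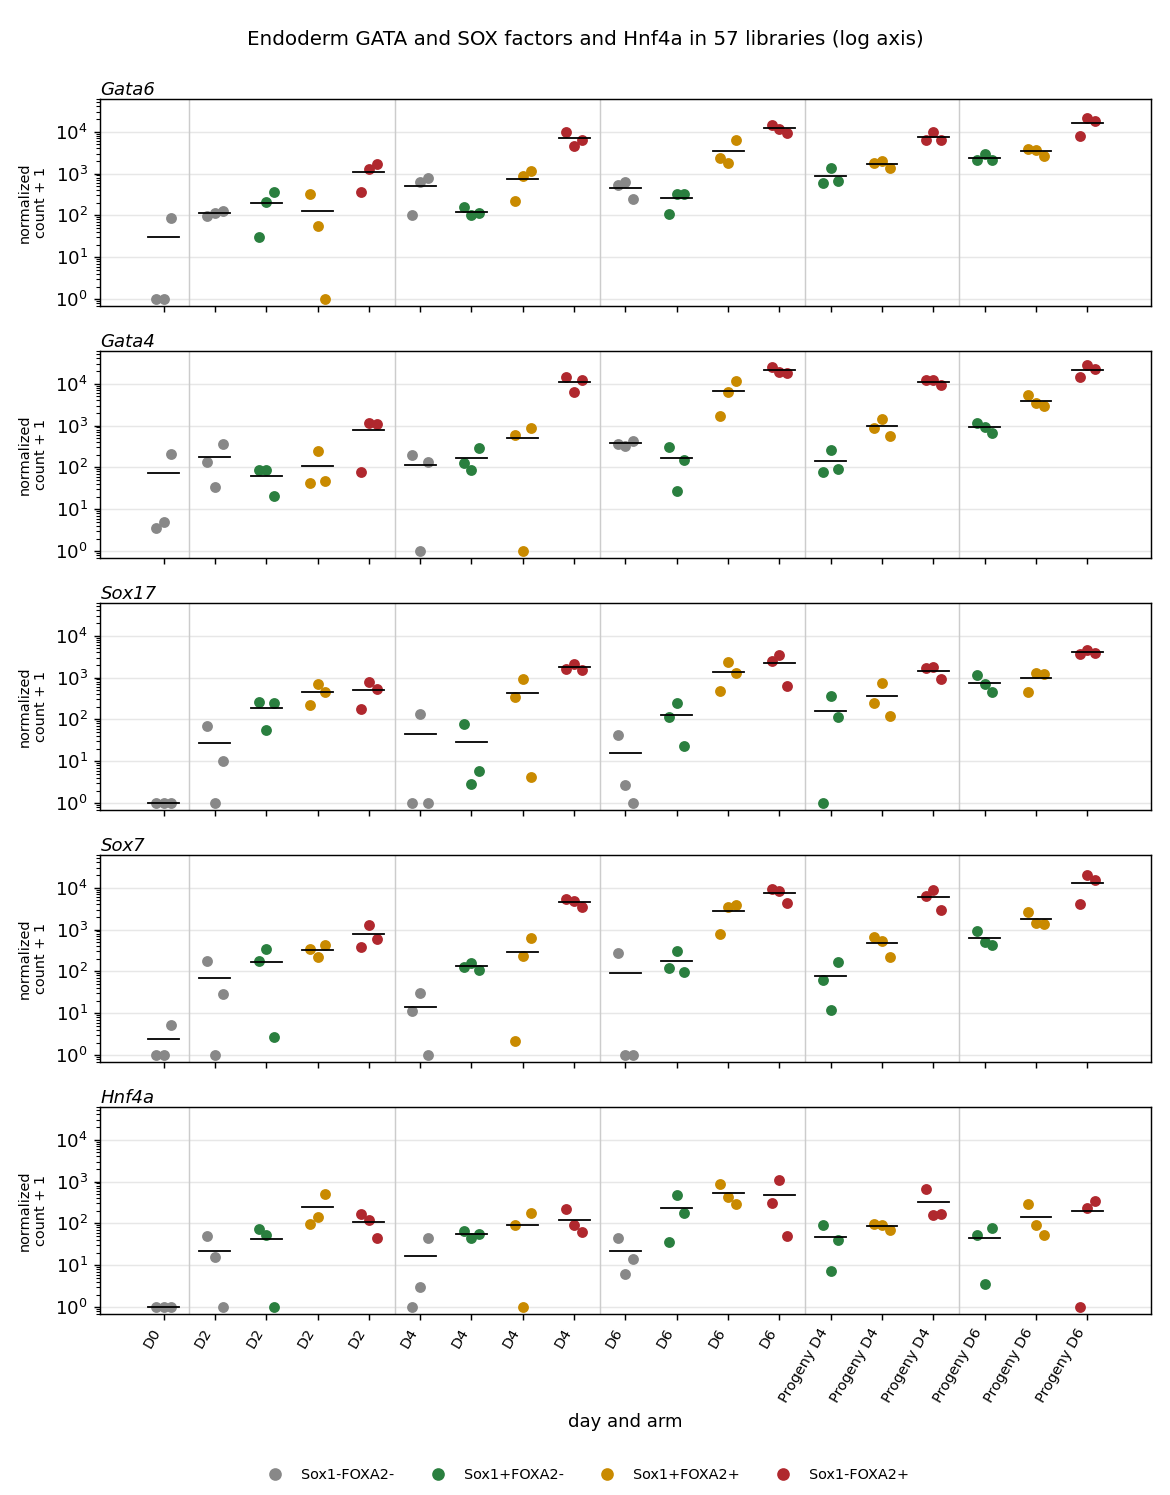
Normalized counts plus 1 (log axis) of each gene in all 57 libraries, by condition. Points are libraries, black lines are means of 3, and colours are gates. The Sox1-FOXA2+ libraries from D4 on are the highest of the 4 GATA and SOXF panels with few exceptions, while the Hnf4a panel shows no such split.

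Between D2 and D4 the levels of the GATA and SOXF genes in Sox1-FOXA2+ cells parted without overlap. Gata6 reached 10107, 4678 and 6504 normalized counts at D4 (7096 ± 2763, SD, n = 3) and Gata4 14783, 6476 and 12158 (11139 ± 4246). Sox17 reached 1584, 2164 and 1535 (1761 ± 350), and Sox7 5413, 4788 and 3485 (4562 ± 984). Every D4 library was above every D2 library for these 4 genes. None of the 4 steps was called by edgeR, which called 0.294% of all genes. That share is of calls and not of genes without overlap. Sox7 came nearest, with a log2 fold change of 2.52 ± 0.53 (edgeR adjusted p = 0.0533). It was called by 5 of 6 other fits, among them DESeq2 (adjusted p = 1.80e-05) and the replicate number as a block (edgeR adjusted p = 0.0487). Without 1 library it was called in 1 of 6 fits (edgeR adjusted p from 0.00504, without replicate 2 of D2, to 0.396). For Gata6 the value was 2.63 ± 1.28 (edgeR adjusted p = 0.657) and for Gata4 3.79 ± 1.47 (edgeR adjusted p = 0.622).

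From D4 to D6 the means were higher again. Gata6 stood at 14837, 11764 and 9394 at D6 (11998 ± 2729), and Gata4 at 24770, 19064 and 18266 (20700 ± 3547). Sox7 stood at 9544, 8287 and 4332 (7387 ± 2720) and Sox17 at 2443, 3515 and 630 (2196 ± 1458). Gata4 was higher in every D6 library than in any D4 library, and the other 3 overlapped. No gene of the 20429 was called between D4 and D6 in these cells, with 927 at an unadjusted p under 0.05 and 235 called by DESeq2, none of them a member. Over the longer step from D2 to D6, Sox7 rose with a log2 fold change of 3.18 ± 0.54 (edgeR adjusted p = 0.00454) where 1.62% of all genes were called. Gata6 (3.36 ± 1.32, edgeR adjusted p = 0.325) and Gata4 (4.65 ± 1.54, edgeR adjusted p = 0.264) did not pass.

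As a share of the D6 mean, all 4 GATA and SOXF genes were low at D2. Sox17 was at 22.8% ± 14.0 (SD, n = 3), Sox7 at 10.3% ± 6.56, Gata6 at 9.32% ± 5.71 and Gata4 at 3.75% ± 2.93. At D4 the shares were 80.2% ± 15.9 for Sox17, 61.8% ± 13.3 for Sox7, 59.1% ± 23.0 for Gata6 and 53.8% ± 20.5 for Gata4. At D2 the shares of Gata4 (0.367, 5.50 and 5.37%) lay below those of Sox17 (7.98, 35.8 and 24.5%) in every library. The other pairs of genes overlapped at D2, and all pairs overlapped at D4, so the rest of the order lies within the spread. The order of the shares was not tested. Foxa2 itself was already at 118% ± 38.7 of its D6 mean at D2 and at 106% ± 13.0 at D4. The cells were sorted on FOXA2 at each of these days. The share of Sox17 at D4 depends on the scattered D6 libraries, being 115% without replicate 2 and 59.1% without replicate 3 of D6.

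**Figure D2:**
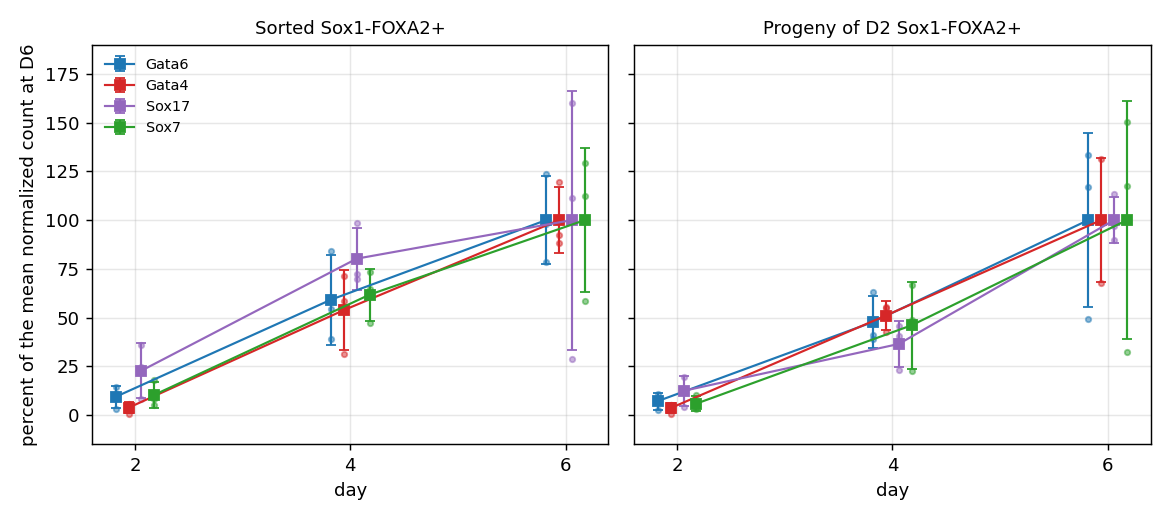
Level of Gata6, Gata4, Sox17 and Sox7 as a percentage of the mean at the last day, in sorted Sox1-FOXA2+ cells (first panel) and in Sox1-FOXA2+ progeny (second panel, where D2 is the sorted parents). Squares are means ± SD, dots are libraries. All 4 genes are lowest at D2 in both panels.

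Hnf4a did not follow this course. In Sox1-FOXA2+ cells it read 216, 90.2 and 61.9 normalized counts at D4 and 314, 1075 and 48.7 at D6, and both days overlap D2. Its highest mean was in Sox1+FOXA2+ cells at D6 (867, 422 and 287), and 8 of the 57 libraries had none of it. When the 19 conditions were put in order of their mean Hnf4a level, neighbours were separated without overlap at 1 of the 18 steps. The same held for Sox17 and Sox7, so this measure does not set Hnf4a apart. In the progeny of all 3 gates Hnf4a stayed between 0 and 649. Hnf4a was called in 1 of 38 comparisons, the step from D0 to D2 above. Its Sox1-FOXA2+ libraries did not overlap the double-negative ones at D4 (2.99 ± 2.70, edgeR adjusted p = 0.987) or at D6, where DESeq2 called it (4.63 ± 1.73, edgeR adjusted p = 0.347, DESeq2 adjusted p = 0.00435). At Progeny D4 it did not overlap between Sox1-FOXA2+ and Sox1+FOXA2- progeny (2.91 ± 0.98, edgeR adjusted p = 0.196, DESeq2 adjusted p = 0.0294).

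The comparison of gates asks whether the endoderm factors belong to the cells that express FOXA2 alone or also to those with Sox1. At D2 the Sox1-FOXA2+ gate did not differ by the test from Sox1+FOXA2- cells in any of the 5 genes, and 1 gene in all (0.00491%) was called, with 1031 at an unadjusted p under 0.05. Gata6 (2.49 ± 1.34, edgeR adjusted p = 0.918) and Sox7 did not overlap between these gates. Sox1+FOXA2- libraries held 29.0, 213 and 362 normalized counts of Gata6, 85.2, 84.6 and 19.4 of Gata4, 254, 56.1 and 246 of Sox17 and 174, 334 and 1.77 of Sox7 at that day. The double-negative cells held 93.8, 112 and 128 of Gata6 and 135, 32.3 and 362 of Gata4. Against them none of the 5 was called either (0.0196% of genes called), though Gata6, Sox17 and Sox7 did not overlap, and DESeq2 called Sox17 (adjusted p = 0.0210). Low counts of these genes were thus present in all 4 gates at D2.

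At D4 Gata6 was the first of the 5 to be called between gates. In Sox1+FOXA2- cells it stayed at 154, 99.99 and 115 normalized counts, against 4678 to 10107 in Sox1-FOXA2+ cells, a log2 difference of 5.87 ± 0.72 (edgeR adjusted p = 0.000215). Only 0.266% of all genes were called in that comparison. Gata4 (6.15 ± 2.07), Sox17 (5.88 ± 2.65) and Sox7 (5.15 ± 1.67) had differences of the same size and no overlap of libraries, yet missed the threshold (edgeR adjusted p = 0.766, 0.881 and 0.675). When only the 2 gates were fitted, Gata4 (edgeR adjusted p = 0.000183) and Sox7 (edgeR adjusted p = 0.000162) were called as well. Against the double-negative cells, where 0.336% of genes were called, Gata6 was higher by 3.81 ± 0.65 (edgeR adjusted p = 0.00829). Sox7 (8.46 ± 1.96), Gata4 (6.64 ± 2.12) and Sox17 (5.31 ± 2.58) had larger differences without overlap. They were not called (edgeR adjusted p = 0.208, 0.666 and 0.681). DESeq2 called Sox7 and Gata4 as well (adjusted p = 2.91e-06 and 0.0107).

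At D6 both GATA genes were called. Sox1+FOXA2- cells had 109, 328 and 322 normalized counts of Gata6 and 313, 26.9 and 152 of Gata4. The log2 differences of Sox1-FOXA2+ cells over them were 5.77 ± 0.59 for Gata6 (edgeR adjusted p = 3.84e-07) and 7.18 ± 0.98 for Gata4 (edgeR adjusted p = 0.00265), where 1.32% of all genes were called. Without replicate 3 of D6 Sox1+FOXA2- the adjusted p of Gata4 was 0.0803. Sox17 (4.34 ± 1.47, edgeR adjusted p = 0.275) and Sox7 (5.62 ± 2.08, edgeR adjusted p = 0.369) did not overlap either but were not called. Against the double-negative cells, where 1% of genes were called, Gata6 was higher by 4.71 ± 0.56 (edgeR adjusted p = 7.06e-06) and Gata4 by 5.81 ± 0.92 (edgeR adjusted p = 0.00936). The Gata4 call was lost with the replicate number as a block (edgeR adjusted p = 0.0841) and without any one of the 3 double-negative libraries (0.125 to 0.149). Sox17 was higher by 7.28 ± 1.70 (edgeR adjusted p = 0.0698) and was called with the block (0.00896). The median gene moved by -0.30 (log2) in this comparison with the Sox1+FOXA2- gate, which is small beside these differences.

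The cells positive for both reporters were below every Sox1-FOXA2+ library at D4 in Gata6, Gata4, Sox17 and Sox7, and only Gata6 was called. At D2 they held 332, 56.3 and 0 normalized counts of Gata6, 41.6, 241 and 46.4 of Gata4, 224, 701 and 445 of Sox17 and 333, 220 and 431 of Sox7. Sox17 and Sox7 were called over D0 (edgeR adjusted p = 0.0101 and 0.0186), where 0.611% of all genes were. The Sox17 mean was 115-fold above the limit at D0. For Sox7 the ratio of means was 238, and that of pooled counts 446 (interval 123 to 3689). The Sox7 call was lost without replicate 1 of D0 or replicate 3 of D2 (edgeR adjusted p up to 0.0517). Hnf4a, at 97.2, 142 and 499 there and with a mean 62.0-fold above the limit, was not called (edgeR adjusted p = 0.165). At D4 Gata6 read 226, 882 and 1151, below every Sox1-FOXA2+ library (-3.63 ± 0.65, edgeR adjusted p = 0.0101, and 0.109 without replicate 2 of D4 Sox1+FOXA2+), with 0.475% of genes called. Gata4 read 605, 0 and 889 and Sox7 1.15, 226 and 641 in those libraries, so that the 3 did not move as one. Against Sox1-FOXA2+ cells Gata4 (-4.77 ± 1.93), Sox7 (-4.44 ± 1.62) and Sox17 (-2.39 ± 2.25) did not overlap either. They were not called (edgeR adjusted p = 0.466, 0.428 and 0.797). Against Sox1+FOXA2- cells of D4 no gene was called at all by edgeR, 1565 had an unadjusted p under 0.05, and DESeq2 called 300, Gata6 among them.

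At D2 no gene at all was called between the double-positive cells and either single-positive gate by edgeR, with 1530 (against Sox1+FOXA2-) and 1731 (against Sox1-FOXA2+) at an unadjusted p under 0.05, and 396 and 512 called by DESeq2, no member among them.

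At D6 the double-positive libraries spread widely. Gata6 stood at 2345, 1796 and 6179 normalized counts (3440 ± 2388) and Gata4 at 1707, 6203 and 11780 (6563 ± 5046). Sox17 stood at 487, 2348 and 1290, and Sox7 at 766, 3452 and 3936. Each of the 4 genes was above every Sox1+FOXA2- library of that day. Gata6 was the one called, by 3.64 ± 0.54 (edgeR adjusted p = 0.000791), where 0.0496% of all genes were called, and the call held without each library in turn (edgeR adjusted p from 0.000115 to 0.00706). Gata4 was higher by 5.27 ± 0.90 but missed the threshold (edgeR adjusted p = 0.0845, and 0.589 with the replicate block). Without 1 library it was called in 3 of 6 fits (edgeR adjusted p from 0.00158 to 0.964), those without replicate 1 or 2 of Sox1+FOXA2- or replicate 1 of Sox1+FOXA2+. Sox17 (3.41 ± 1.41) and Sox7 (3.92 ± 1.92) were not called (edgeR adjusted p = 1 for each, and from 0.854 to 1 without 1 library). Against Sox1-FOXA2+ cells of D6 none of the 5 was called, where 0.0909% of genes were. Gata6, Gata4 and Sox7 were lower without overlap of libraries. Gata4 and Sox7 were not called without any 1 library either (edgeR adjusted p at least 0.352 and 0.636). Gata6 was lower by 2.14 ± 0.50 in that comparison (edgeR adjusted p = 0.0819, 0.0658 with the replicate block and DESeq2 adjusted p = 0.00982). Without 1 library it was called in 2 of 6 fits (edgeR adjusted p from 0.00506 to 0.489), those without replicate 3 of Sox1+FOXA2+ or replicate 3 of Sox1-FOXA2+. Over days, no member was called in the double-positive gate between D2 and D4 (0.018% of genes called), D4 and D6 (0%, with 789 at an unadjusted p under 0.05 and 173 called by DESeq2) or D2 and D6 (0.027%), although Gata6, Gata4, Sox7 and Hnf4a did not overlap between D4 and D6. No member was called in these 3 steps without any 1 library either, with an edgeR adjusted p of at least 0.292 for Gata4 and 0.346 for Sox7 between D2 and D6. The libraries with the lowest Foxa2 counts, replicates 1 and 3, were the lowest and the highest of the gate for Gata4 and Sox7.

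**Figure D3:**
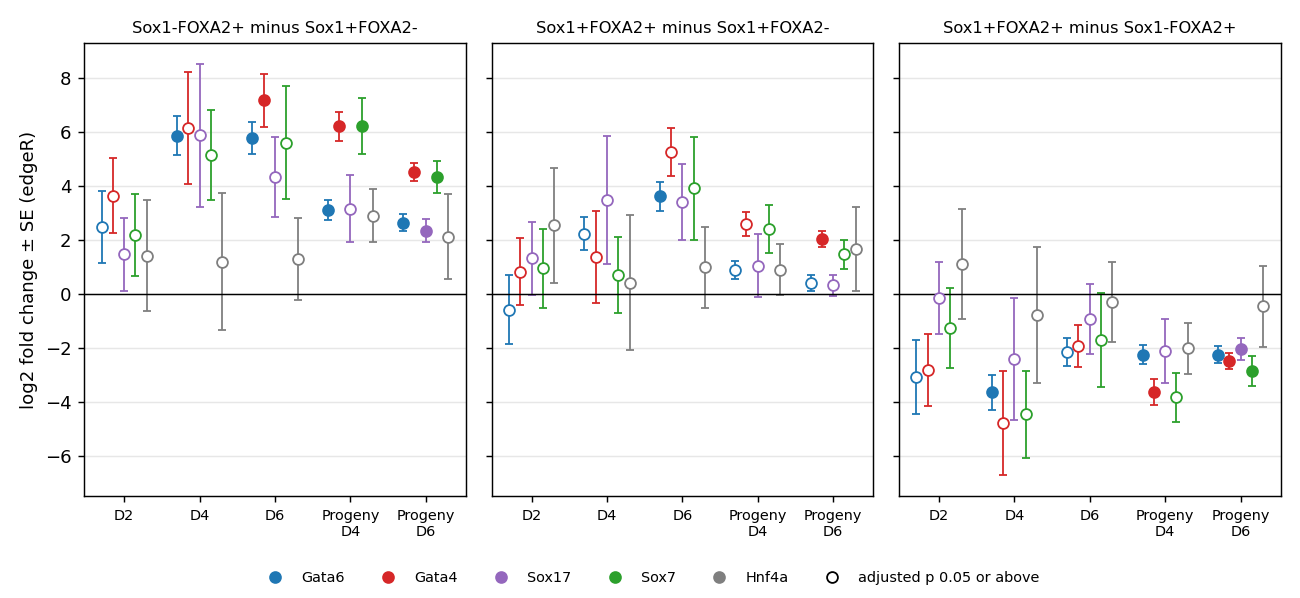
Log2 fold changes between gates with their SE for the 5 genes, at D2, D4, D6, Progeny D4 and Progeny D6. F is Sox1-FOXA2+, S is Sox1+FOXA2- and B is Sox1+FOXA2+, and filled points have an edgeR adjusted p under 0.05. Gata6 is filled from D4 on for F over S, and all 4 GATA and SOXF genes are filled at Progeny D6.

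Whether the gap between Sox1-FOXA2+ and Sox1+FOXA2- cells itself widened was tested as an interaction. For Gata6 it was larger by 3.40 ± 1.02 (log2) at D4 than at D2 (edgeR adjusted p = 0.623) and by 3.27 ± 1.01 at D6 than at D2 (edgeR adjusted p = 0.273). None of the 5 genes was called in either test, where 0.0526% and 0.377% of all genes were. DESeq2 called Gata6 in both (adjusted p = 0.00466 and 0.00740) and Sox17 in the first (4.44 ± 1.56, edgeR adjusted p = 0.623, DESeq2 adjusted p = 0.0351). Without a filter on low counts edgeR made 7 calls of members over both tests.

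The progeny of cells sorted at D2 ask what the gates gave rise to after 2 and 4 more days. Progeny of Sox1-FOXA2+ cells held 6173, 9935 and 6425 normalized counts of Gata6 at Progeny D4 (7511 ± 2103) and 12007, 12077 and 9251 of Gata4 (11112 ± 1612). Sox17 read 1645, 1834 and 933 and Sox7 6333, 8738 and 2967. Against the sorted parents at D2 Gata6 rose by 2.76 ± 0.59 (edgeR adjusted p = 0.0347), with 3.93% of all genes called. The call was lost without any one of 5 of the 6 libraries (edgeR adjusted p up to 0.130). Gata4 (3.84 ± 0.91, edgeR adjusted p = 0.0782), Sox17 (1.54 ± 0.44, edgeR adjusted p = 0.0698) and Sox7 (2.96 ± 0.75, edgeR adjusted p = 0.0860) missed the threshold with no overlap of libraries. In these 3 too a single D2 library decided the call. The adjusted p of Gata4 was 1.14e-05 without replicate 1 of D2, and those of Sox17 and Sox7 were 0.00901 and 0.0487 without replicate 2.

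At Progeny D6 the same progeny held 7762, 21013 and 18452 normalized counts of Gata6 (15742 ± 7029) and 14698, 28610 and 22028 of Gata4 (21779 ± 6960). Sox17 read 3630, 4571 and 3904 (4035 ± 484) and Sox7 4191, 19631 and 15347 (13057 ± 7971). None of the 5 was called between Progeny D4 and Progeny D6, where 0.0897% of all genes were, and Gata4 and Sox17 did not overlap between these days. Compared with sorted Sox1-FOXA2+ cells of the same day, no member was called at D4 (0.173% of all genes called) or at D6 (0.121%). For Gata6 the difference at D4 was 0.11 ± 0.43 and at D6 0.49 ± 0.44 (edgeR adjusted p = 1 and 0.691), and for Gata4 it was 0.01 ± 1.09 and 0.18 ± 0.68 (edgeR adjusted p = 1 and 0.973). Sox17 was higher in every Progeny D6 library than in any sorted D6 library, with a difference of 0.95 ± 0.75 (edgeR adjusted p = 0.630).

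Gata6 transcripts were also present in the progeny of Sox1+FOXA2- cells. These held 605, 1348 and 649 normalized counts at Progeny D4 and 2110, 2975 and 2152 (2412 ± 488) at Progeny D6, when sorted Sox1+FOXA2- cells at D6 had 109 to 328. Gata4 read 77.6, 262 and 92.5 at Progeny D4 and 1133, 939 and 676 at Progeny D6. Sox17 read 0, 353 and 114 and then 1147, 684 and 443, and Sox7 62.1, 11.1 and 162 and then 924, 508 and 437. The 3 Progeny D6 libraries were above the 3 Progeny D4 libraries for these 4 genes. No gene was called in that step by edgeR, 902 had an unadjusted p under 0.05, and DESeq2 called 45, 1 of them a member. Against their sorted parents at D2, Gata6 was higher by 2.15 ± 0.70 at Progeny D4 (edgeR adjusted p = 0.167, with 2.73% of genes called) and no member was called. Both comparisons were added after the levels had been seen.

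The gates still separated the members in progeny. At Progeny D4 Sox1-FOXA2+ progeny exceeded Sox1+FOXA2- progeny by 3.12 ± 0.36 (log2) for Gata6, 6.22 ± 0.54 for Gata4 and 6.23 ± 1.03 for Sox7 (edgeR adjusted p = 4.73e-05, 1.62e-05 and 0.0217), where 1.97% of genes were called. Sox17 was higher by 3.16 ± 1.24 (edgeR adjusted p = 0.412). The Sox7 call was lost with the replicate block (edgeR adjusted p = 0.137) and without replicate 1 or 2 of Sox1-FOXA2+ or replicate 1 of Sox1+FOXA2- progeny (0.0632 to 0.184). At Progeny D6 all 4 were called, with log2 differences of 2.65 ± 0.32 for Gata6, 4.52 ± 0.33 for Gata4, 2.36 ± 0.42 for Sox17 and 4.33 ± 0.59 for Sox7 (edgeR adjusted p = 0.000148, 3.40e-06, 0.00301 and 0.00157). The background there was 6.91% of all genes. The gap of Gata6 was smaller in progeny than in sorted cells by 2.79 ± 0.62 at D4 and by 2.98 ± 0.64 at D6, and neither difference was called (edgeR adjusted p = 0.633 and 0.109), where 0% and 0.0196% of genes were (0 genes at D4 by edgeR, 1196 at an unadjusted p under 0.05 and 284 by DESeq2).

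Progeny of the double-positive cells were below Sox1-FOXA2+ progeny in all 4 GATA and SOXF genes at Progeny D6, and above Sox1+FOXA2- progeny in Gata4. They held 1738, 2032 and 1382 normalized counts of Gata6 at Progeny D4 and 3860, 3641 and 2638 at Progeny D6. Sox17 read 243, 727 and 117 and then 446, 1310 and 1237, and Sox7 652, 536 and 218 and then 2686, 1415 and 1377. Gata4 stood at 869, 1438 and 574 and then at 5419, 3416 and 3011. Gata4 rose over the D2 parents by 3.03 ± 0.67 (edgeR adjusted p = 0.0277, with 3.1% of genes called). That call held in 2 of 6 fits without 1 library (edgeR adjusted p from 0.000168 to 0.112). From Progeny D4 to Progeny D6 no gene was called by edgeR in this gate, 548 had an unadjusted p under 0.05, and DESeq2 called 41, Sox7 among them. Against Sox1+FOXA2- progeny Gata4 was higher by 2.60 ± 0.46 at Progeny D4 (edgeR adjusted p = 0.159, with 0.00483% of genes called). It was called there with the replicate block (1.61e-05). At Progeny D6 Gata4 was higher by 2.04 ± 0.30 (edgeR adjusted p = 0.0111, with 0.18% called). Gata6 (0.42 ± 0.31) and Sox17 (0.33 ± 0.40) overlapped there (edgeR adjusted p = 0.740 and 0.883), and Sox7 (1.48 ± 0.53) did not but was not called (edgeR adjusted p = 0.432, DESeq2 adjusted p = 0.0433). Against Sox1-FOXA2+ progeny Gata6 was lower by 2.23 ± 0.35 and Gata4 by 3.62 ± 0.47 at Progeny D4 (edgeR adjusted p = 0.00187 and 0.00104, with 0.792% of genes called, 164 in all and 637 with the replicate block). At Progeny D6 all 4 GATA and SOXF genes were lower, with log2 differences of -2.23 ± 0.32 for Gata6, -2.48 ± 0.30 for Gata4, -2.03 ± 0.41 for Sox17 and -2.85 ± 0.55 for Sox7 (edgeR adjusted p = 0.00107, 0.000283, 0.0123 and 0.0173, with 4.63% called). The Sox7 value was 0.0830 to 0.114 without replicate 3 of Sox1-FOXA2+ or replicate 2 or 3 of Sox1+FOXA2+ progeny. None of the calls between or within progeny was kept when all 57 libraries shared 1 estimate of spread.

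The ratio of the 2 GATA genes was compared within libraries. All genes inside the span of another gene, introns included, read 0, so reads may have been counted over whole gene spans. Reads from introns may then be among the counts, and the sign of a ratio per kilobase of exon is uncertain. Per kilobase of exon, the log2 ratio of Gata4 to Gata6 in the Sox1-FOXA2+ gate was 1.33 ± 0.23 (SD, n = 3) on D4, followed by 1.49 ± 0.14 on D6, while its progeny had 1.28 ± 0.34 and 1.23 ± 0.34. In Sox1+FOXA2- progeny it was -2.02 ± 0.31 at Progeny D4 and -0.72 ± 0.44 at Progeny D6, Gata6 having more counts per kilobase of exon. Double-positive progeny had -0.23 ± 0.39 and then 0.89 ± 0.29. At Progeny D4 the 3 kinds of progeny did not overlap in this ratio. An exact two-sided permutation test gave p = 0.1 for each of these pairs, the smallest that 3 against 3 allows (0.125 after adjustment over 10 comparisons of ratios), so no pair can reach significance. The comparisons of ratios were added after the levels had been seen. At Progeny D6 Sox1-FOXA2+ and double-positive progeny overlapped (exact p = 0.3). At D2 the ratio in Sox1-FOXA2+ cells was -0.33 ± 1.10, with replicate 1 at -1.57 and the others at 0.52 and 0.08. The log2 ratio of Sox7 to Sox17 per kilobase was 2.26 ± 0.77 in Sox1-FOXA2+ cells at D6 and 0.01 ± 0.21 in Sox1+FOXA2- progeny at Progeny D6.

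**Figure D4:**
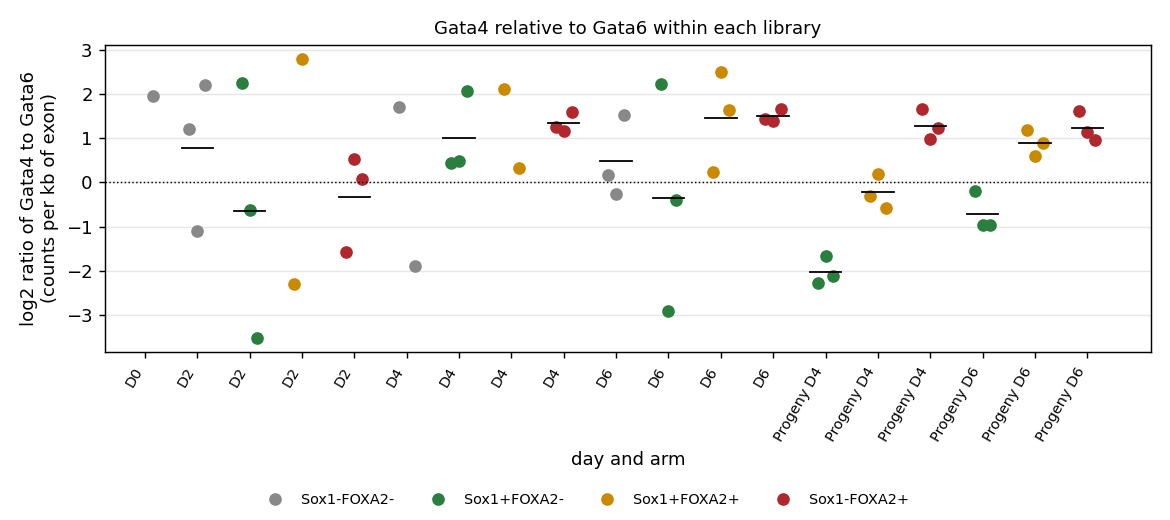
Log2 ratio of Gata4 to Gata6, each per kilobase of exon, in each library by condition, with lines at the means where all 3 libraries have counts of both genes. Libraries with a count of 0 are not drawn. Ratios above 0 have more Gata4 counts per kilobase of exon, and Sox1-FOXA2+ libraries from D4 on lie between 0.95 and 1.65.

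Ranked over all 19 conditions, the 4 GATA and SOXF genes shared their 4 highest conditions, sorted Sox1-FOXA2+ cells and progeny at D4 and D6, followed by Sox1+FOXA2+ cells at D6. Among the other 45 libraries, 1 exceeded the lowest of those 12 for Gata6 and 1 for Gata4, 2 for Sox7 and 10 for Sox17, and the highest of the others was a D6 Sox1+FOXA2+ library each time. For Hnf4a 38 of the 45 did. The lowest of its 12 was 0, in replicate 1 of Sox1-FOXA2+ at Progeny D6, so the 38 are the libraries with any count. Neighbours in the order of means mostly overlapped. The exceptions were the steps after ranks 7 and 18 for Gata6, after 2 and 6 for Gata4, after 1 for Sox17, and after 6 for Sox7. Per length, in sorted Sox1-FOXA2+ cells at D6, Gata4 had 145 counts per kilobase of exon after scaling to library size (RPKM). Sox7 followed with 61.8, Gata6 with 52.2, Sox17 with 15.5 and Hnf4a with 2.93. Since reads from introns may be among the counts, this is not read as an order of transcript abundance.

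Over the condition means (log2 of normalized count plus 1, n = 19), the profile of Sox17 was most like that of Sox7 (Pearson r = 0.956), and Gata4 was close to Sox7 (0.896) and Gata6 (0.894). Hnf4a was least like Gata6 (0.595), and Foxa2 was nearer to Sox17 (0.855) than to Gata6 (0.680). Conditions share libraries' depth and sorting, so these are descriptions. Among 23678 genes, those most like Gata6 included Nxf7 (0.952), Anxa4, Smurf1 and Tgfbr3 (0.924). Those most like Gata4 were Ctsl (0.959), Lama1, Creb3l2, Lamb1 and Arhgap6 (0.949). Hkdc1 and Ptpn14 were among the 5 nearest of both SOXF genes, with r = 0.957 and 0.920 for Sox7 and 0.912 and 0.898 for Sox17, and Gpx3 (Sox17), Col4a2 and Arhgef28 (Sox7) were also among them. For Hnf4a the nearest gene, Ubash3b, reached 0.848, then Clic6, Gm29260, Sox7 and Arhgap18 (0.813). With Spearman's rho 0 to 2 of the 5 names per member were the same, so the names depend on the measure.

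Relatives of these factors were set beside them in the comparison of the Sox1-FOXA2+ with the Sox1+FOXA2- gate. At Progeny D6 Foxa2 was higher, with a log2 difference of 3.74 ± 0.30 (edgeR adjusted p = 4.38e-06). Gata3, known from trophectoderm and surface ectoderm, was lower (-1.65 ± 0.30, edgeR adjusted p = 0.00276). Gata5 and the third SOXF gene, Sox18, had at most 404 and 10.2 normalized counts in Sox1-FOXA2+ cells at D6.

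Many products of the primitive and yolk-sac endoderm were called higher in the Sox1-FOXA2+ gate from D4 on. Against the Sox1+FOXA2- gate, none of 16 listed genes was called at D2, 6 were higher at D4 (Lama1, Lamb1, Lamc1, Col4a2, Sparc and Dab2), 10 at D6 (with Pdgfra, Cubn, Lrp2 and Col4a1), 11 at Progeny D4 and 12 at Progeny D6, and none was lower. The background shares were 0.266%, 1.32%, 1.97% and 6.91% of all genes. The counts at D4 and D6 rest in part on 1 library each, being 3 at D4 without replicate 2 and 3 at D6 without replicate 3 of Sox1+FOXA2-. The median log2 difference was 4.58 at D4, where that of all genes was -0.10, and 5.72 at D6. Lama1, a laminin chain of the basement membrane that parietal endoderm lays down, was higher by 7.82 ± 0.86 at D6 (edgeR adjusted p = 0.000580) and Sparc, a matrix protein, by 6.01 ± 0.71 (edgeR adjusted p = 0.000463). Dab2, an endocytic adaptor, was higher by 4.97 ± 0.62 (edgeR adjusted p = 0.000247), and Pdgfra, a receptor that marks primitive endoderm, by 6.14 ± 1.01 (edgeR adjusted p = 0.00986). In the D6 libraries labelled Sox1+FOXA2+, 3 of the 16 were higher than in Sox1+FOXA2- cells (Lama1, Sparc and Dab2), where 0.0496% of all genes were called. This count was 0 without any one of the 3 Sox1+FOXA2- libraries, and 4, 1 and 2 without replicates 1, 2 and 3 of Sox1+FOXA2+. Over days in Sox1-FOXA2+ cells, 5 of the 16 rose from D2 to D4 (Lamc1, Lrp2, Col4a1, Col4a2 and Lamb1, with 0.294% of genes called) and none was called from D4 to D6. From D2 to D6 7 rose and Prdm1 fell, with 1.62% of genes called.

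**Figure D5:**
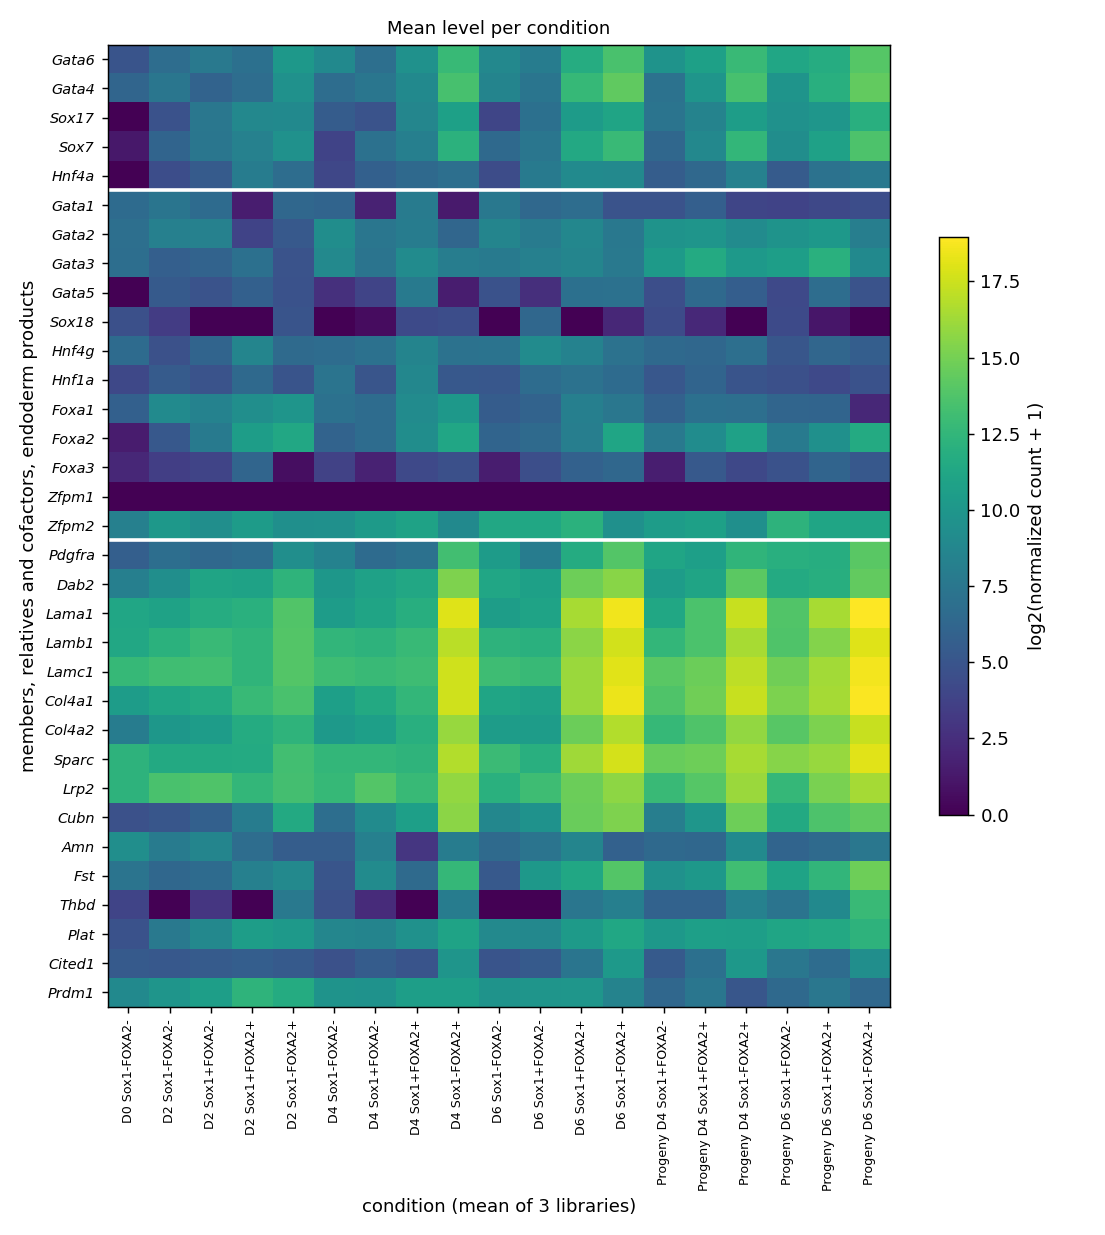
Mean level, as log2 of normalized count plus 1, of the 5 members, relatives and the yolk-sac endoderm products in the 19 conditions. Zfpm1 is at 0 throughout since its exons lie inside another gene. The members other than Hnf4a and most of the products are highest in the Sox1-FOXA2+ columns from D4 on.

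Genes linked to HNF4A were not called. Of 12 listed secreted proteins, among them apolipoproteins and transthyretin, 4 to 8 passed the count filter in the comparisons of Sox1-FOXA2+ with Sox1+FOXA2- cells, and none was called. Their median log2 difference changed sign, being 1.08 at D2, 2.03 at D4 and -2.63 at D6. It was 1.82 at Progeny D4 and -0.37 at Progeny D6. Ttr and Afp, secreted products of visceral endoderm, had no counts in Sox1-FOXA2+ cells at D6. Of the 12 genes of the FGF signal that precedes primitive endoderm, 1 was called at D6, Fgfr1, which was lower in the Sox1-FOXA2+ gate (-1.93 ± 0.45, edgeR adjusted p = 0.0167). At Progeny D4 Fgfr3 and Fgfr4 were higher (edgeR adjusted p = 0.0244 and 0.0435) and Fgfr1 was lower (edgeR adjusted p = 0.0446). At Progeny D6 Fgfr3 (2.57 ± 0.49) and Fgfr4 (3.50 ± 0.60) were higher (edgeR adjusted p = 0.00378 and 0.00180). Dusp6 (-2.92 ± 0.30) and Dusp4 (-1.19 ± 0.33), targets of the pathway, were lower there (edgeR adjusted p = 3.64e-05 and 0.0427). None of the 12 was called at D2 or D4, and the background shares are those given for the products.

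Markers of cell types in which these factors also act were set beside the members. In Sox1-FOXA2+ cells at D6 the summed normalized counts of 9 parietal endoderm markers ranged from 785850 to 1720100 (Thbd is at 0 in Sox1+FOXA2- cells), against 9013 to 13936 in Sox1+FOXA2- and 70642 to 564989 in Sox1+FOXA2+ cells. The 10 visceral endoderm markers summed to 91231 to 205772, against 8529 to 13131. Of these Ttr and Afp were at 0 in Sox1-FOXA2+ cells and Apoa1 was at 0 in Sox1+FOXA2- cells. Amn, Cubn, Lrp2 and Dab2 belong to this list and also to the products given above. The same holds for Sparc, Thbd, Plat, Lama1, Col4a1, Col4a2 and Fst of the parietal list. The sums of both lists thus partly repeat the result for the products. Heart markers summed to 297 to 1025 in Sox1-FOXA2+ cells, with Hand1, Hand2 and Isl1 at 0, and to 973 to 1533 in Sox1+FOXA2- cells, with Hand2 at 0. Endothelial markers summed to 1606 to 3138, against 2950 to 5297. Markers of definitive endoderm and mesendoderm summed to 290 to 531, with T and Gsc at 0, against 250 to 877. Liver and gut markers summed to 34.9 to 1143 against 219 to 658, with Pdx1 at 0 in both. Neuroectoderm markers went the other way, with 3718 to 4283 in Sox1-FOXA2+ cells (Pou3f2 at 0) and 15751 to 16585 in Sox1+FOXA2- cells (Sox1 cannot be counted). Pluripotency markers summed to 4721 to 5701, against 3548 to 17606, and trophectoderm markers to 360 to 419, against 927 to 2866. Sox2 read 0 in all 19 conditions, D0 included, though the study detected SOX2 protein in all its media. That 0 is not read as absence of the transcript, and its source was not tested. The part of these cell types in the levels of the 5 genes was not tested.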

How the data were processed

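RNA of about 500 cells per library was made into SMART-Seq Stranded libraries and sequenced on a NovaSeq6000. Per the labels, STAR, SAMtools and featureCounts were used (versions not given in the sources used here), with the GENCODE M21 annotation per the study's methods. The deposited values are raw counts per gene, without normalization. For its own analysis the study normalized counts with DESeq2. Here, 92 lines that name no gene (0 counts) were left out. Genes with a low count were filtered (filterByExpr, minimum count 10, minimum total 15). TMM scaling and edgeR 4.0.16 quasi-likelihood tests with a robust spread (R 4.3.3) were run per day and arm, per gate over days, or over 18 libraries for tests of differences, with two-sided Benjamini-Hochberg adjusted p over all genes. Levels are counts divided by DESeq2 1.42.0 size factors. Limits for a count of 0 are 3 counts. These limits and intervals treat each read as an independent count, and reads carry no molecular identifiers. Where 2 reads come from 1 fragment, the limits are too low and the intervals too narrow. They do not cover any error beyond counting. Figures were drawn with matplotlib 3.10.9. The tests were tested on simulated counts. No 2 libraries were identical. Replicates are biological per the labels, numbered 1 to 3 in every group. Same-numbered libraries deviated together in some fits. The correlation of their deviations was above 0.1 in all 3 pairs for the gates of D6 other than Sox1+FOXA2+ against Sox1-FOXA2+, and for all 3 pairs of gates at Progeny D4, among others. Alternatives were 1 fit of all 57 libraries, only the groups compared, the replicate block, no filter, RLE scaling, DESeq2, each library left out and, added later, no robust spread. The members and gene lists were chosen with earlier results of these data known. Genes named beyond the members are those of the lists and, per member, the 5 with the highest Pearson r over condition means of log2(normalized count + 1), among genes with a mean of at least 10. Some genes that this rule selects are not reported here.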

Additional observations from a re-analysis of the deposited data

How the results depend on the processing

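Of the 30 calls of members over 38 comparisons, DESeq2, RLE scaling and the fit without the robust spread (chosen after seeing the data) kept 30 each, the fit without a filter 29, the replicate block 28, the fit of only the groups compared 21 of the 22 it could test, and 21 of the 30 were kept without each library in turn (for double-positive cells over days chosen after seeing the data). A single fit of all 57 libraries kept 10, all among sorted cells. The cause was not tested. With that fit the calls numbered 4 rather than 10 for Sox1-FOXA2+ against Sox1+FOXA2-, 0 rather than 2 for double-positive against Sox1+FOXA2-, 0 rather than 7 for double-positive against Sox1-FOXA2+, 5 rather than 2 for double-positive cells over days, and 0 rather than 1 for each of the Sox1-FOXA2+ and double-positive progeny over days. DESeq2 made 15 rather than 10 calls for Sox1-FOXA2+ against Sox1+FOXA2-, 9 rather than 7 for double-positive against Sox1-FOXA2+, 9 rather than 3 for Sox1-FOXA2+ against double-negative cells, 6 for double-positive against Sox1+FOXA2-, 8 rather than 4 for Sox1-FOXA2+ cells over days, 4 for double-positive cells over days, 4 and 2 for their progeny over days, and, where edgeR made 0, 2 for Sox1+FOXA2- progeny over days, 2 for the gate difference in progeny against sorted cells and 3 for that between days. Without a filter the counts were 7 for Sox1-FOXA2+ against double-negative cells, 7 for double-positive against Sox1+FOXA2-, 12 for Sox1-FOXA2+ cells over days, 3 each for Sox1-FOXA2+ progeny, double-positive progeny and the gate difference in progeny against sorted cells, 1 for Sox1+FOXA2- progeny, and 7 for the gate difference between days. Without the robust spread they were 6 for Sox1-FOXA2+ against double-negative cells, 7 for Sox1-FOXA2+ cells over days and 3 for their progeny. With only the groups compared they were 5 for Sox1-FOXA2+ against double-negative and 1 for double-positive against Sox1+FOXA2-. The block gave 3 for Sox1-FOXA2+ progeny over days, adding Sox17 and Sox7, and leaving out 1 library gave 0 to 2. Leaving out 1 library gave 1 to 2 calls for double-positive cells over days and 0 to 1 for their progeny. Beside the calls named with the results, the block changed no other call of a member where the numbers pair the samples. Over all 57 libraries 45 deviated most like libraries of their own number. Leaving out 1 library moved shares of the D6 level: Gata6 in double-positive cells at D4 to between 16.1% and 36.4%, Sox17 in Sox1-FOXA2+ cells at D4 to between 59.1% and 115%, Sox17 in double-positive cells at D2 to between 24.3% and 51.4%, and Hnf4a in Sox1-FOXA2+ cells to between 15.8% and 60.6% at D2 and 15.9% and 67.7% at D4. Some differences that were never called changed sign. With the replicate block Hnf4a was at -0.54 for double-positive against Sox1+FOXA2- at D4, at 0.21 for double-positive against Sox1-FOXA2+ at D6 (0.0164 with RLE scaling and 0.0163 with DESeq2, against -0.29), and at -0.74 for Sox1+FOXA2- progeny at Progeny D4 against D2. Without 1 library, uncalled log2 differences crossed 0 in some comparisons. The ranges for double-positive against Sox1+FOXA2- were -2.86 to 0.14 (Gata6) and -0.57 to 1.22 (Gata4) at D2, -0.60 to 1.29 (Sox7) and -0.31 to 1.01 (Hnf4a) at D4, and -0.029 to 2.39 (Sox17) at Progeny D4. For double-positive against Sox1-FOXA2+ they were -0.64 to 0.37 (Sox17) at D2, and for Hnf4a -0.84 to 1.09 at D6 and -1.43 to 0.24 at Progeny D6. For Sox1-FOXA2+ they were -0.089 to 2.47 (Hnf4a) against Sox1+FOXA2- at D6, -0.53 to 0.57 (Hnf4a) from D2 to D4, -0.22 to 0.76 (Sox17) from D4 to D6 and -1.38 to 0.25 (Hnf4a) from Progeny D4 to Progeny D6. For double-positive cells they were -0.60 to 5.01 (Gata4) from D0 to D2, -1.46 to 0.20 (Sox17) and -1.84 to 0.11 (Sox7) from D2 to D4, -1.43 to 0.14 (Sox17) from D2 to Progeny D4 and -0.22 to 1.13 (Hnf4a) from Progeny D4 to Progeny D6. Low counts from about 500 cells limit what is said of Hnf4a and of the members outside Sox1-FOXA2+ cells.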
